A study of Mus musculus with 8 samples.

Results

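A group of 9 genes for chemokines that keratinocytes are known to make, Cxcl1, Cxcl2, Cxcl5, Cxcl10, Cxcl14, Ccl2, Ccl7, Ccl11 and Ccl20, were followed over 8 Affymetrix arrays of mouse primary keratinocytes. Every probe set whose only gene symbol in the platform annotation is one of these names was taken, which gave 10 probe sets of 22626 that are not controls. Cxcl14 has 2 probe sets and each other gene has 1, among 12393 genes with a probe set of their own. The set was chosen by gene name and in part selected on measured intensities, because Cxcl1 and Ccl20 were lower in the first hour after tamoxifen, so the values of the first hour are given here as a description and are not tested. All cells had been infected with an empty retrovirus. The 2 untreated arrays received no tamoxifen by their titles, although a description shared by all samples speaks of treatment, and 1 array each was made 20, 40, 60, 120, 180 and 240 min after addition of tamoxifen, which binds estrogen receptors. The strain, age and number of mice, the tamoxifen dose and whether the arrays come from separate cultures are not given in the sources used here, and no array of cells handled for the same times without tamoxifen was analysed here. P-values therefore measure only the spread between these arrays, which may be technical, and in a pooled window of 3 times it also holds the differences between times.

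Chemokines are small secreted proteins that bind G protein-coupled receptors on leukocytes and direct their migration. In skin, keratinocytes release them when IL-1, TNF, IL-17 or interferons reach the cell, and NF-kB drives many of the genes. Several of the transcripts, Cxcl1 and Cxcl2 among them, are short-lived because AU-rich elements mark them for decay, so their levels can move within an hour. Cxcl1, Cxcl2 and Cxcl5 attract neutrophils through Cxcr2, Cxcl10 attracts T cells through Cxcr3, Ccl2 and Ccl7 attract monocytes through Ccr2, Ccl11 attracts eosinophils through Ccr3, and Ccl20 attracts Ccr6-bearing cells such as Th17 cells. Cxcl14 differs from the rest in being made by resting epithelium.

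Some of the members are neighbours on the genome. In the order of protein-coding genes in RefSeq, Cxcl1 and Cxcl2 are direct neighbours on chromosome 5, Cxcl5 lies next to Ppbp on the same chromosome, and Ccl2, Ccl7 and Ccl11 follow one another on chromosome 11. Cxcl10, Cxcl14 and Ccl20 adjoin no other member. Promoter windows from RefSeq (GRCm38.p6) were matched for 5 of the 9 genes. The 250 bases before the start were searched on both strands for the NF-kB consensus, for AP-1 (TGANTCA), for the interferon-stimulated response element (GAAA and GAAA with 2 free bases between them) and for a TATA box (TATAAA). The windows below are those with an NF-kB match, shown because this is the factor the genes are best known to share. Each is written 5′ to 3′ on the gene's strand, with the matched bases in capitals, and adjoining matches overlap.
Cxcl1, chr5:90890995-90891244, plus strand: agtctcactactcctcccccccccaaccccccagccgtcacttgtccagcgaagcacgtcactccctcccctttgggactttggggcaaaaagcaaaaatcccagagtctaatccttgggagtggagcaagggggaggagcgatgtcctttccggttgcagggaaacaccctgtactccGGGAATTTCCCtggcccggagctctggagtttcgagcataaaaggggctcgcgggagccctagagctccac
Cxcl2, chr5:90903649-90903898, plus strand: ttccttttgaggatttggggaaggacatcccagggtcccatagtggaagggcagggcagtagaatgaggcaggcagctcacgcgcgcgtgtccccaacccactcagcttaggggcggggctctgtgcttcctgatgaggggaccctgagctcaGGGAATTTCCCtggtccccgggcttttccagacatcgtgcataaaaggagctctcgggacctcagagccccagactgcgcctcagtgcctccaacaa
Ccl20, chr1:83116516-83116765, plus strand: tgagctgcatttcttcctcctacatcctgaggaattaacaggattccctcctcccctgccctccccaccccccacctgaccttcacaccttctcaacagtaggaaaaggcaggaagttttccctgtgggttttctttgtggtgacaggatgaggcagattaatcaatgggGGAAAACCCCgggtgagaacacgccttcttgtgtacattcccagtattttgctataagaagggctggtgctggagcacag
Cxcl10, chr5:92348890-92349139, minus strand: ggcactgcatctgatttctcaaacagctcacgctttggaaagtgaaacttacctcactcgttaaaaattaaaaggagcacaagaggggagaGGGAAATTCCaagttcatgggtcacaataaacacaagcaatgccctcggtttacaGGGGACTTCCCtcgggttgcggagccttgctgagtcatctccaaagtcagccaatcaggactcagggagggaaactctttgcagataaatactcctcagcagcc

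The NF-kB consensus was found in 4 of the 5 windows, and in 7.25% of all 32851 RefSeq windows of this length. In Cxcl1 the matched bases lie at -71 to -61 from the start and in Cxcl2 at -97 to -87, and the longest run these windows share, of 14 bases, begins with that match. Ccl20 has a match at -80 to -71, on the opposite strand. Cxcl10 also holds an AP-1 match (6.75% of all windows) and an interferon-stimulated response element (2.98% of all windows). The Cxcl14 window holds no NF-kB match and 1 interferon element, and TATAAA is in none of the 5 windows against 12.4% of all. A match of letters is a description and not a measured site.

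Levels are deposited linear intensities, and log2 differences and folds are on log2(intensity + 16), so that changes of dim probe sets come out smaller than they are. A level of 1 probe set cannot be set against that of another. The dimmest 30% of probe sets (mean log2 below 7.04) were left out of the tests, which left 15838. Of the 10 chemokine probe sets 7 passed, those of Cxcl1, Cxcl5, Ccl2, Ccl11 and Ccl20 and both of Cxcl14. Just inside the limit was Ccl11 (mean log2 7.06) and just outside was Cxcl10 (6.90), with Ccl7 (6.83) and Cxcl2 (6.50) further below. Median intensities of the arrays lay between 192 and 198. The untreated arrays differed in transcripts of cell division. The mean of 26 genes of G2 and M phase was 9.55 (log2) in replicate 1 and 8.75 in replicate 2. The tamoxifen arrays lay between 8.77 and 9.46. Of 11 keratinocyte markers measured, 11 passed the brightness limit, and 0 of 6 endothelial markers did. All 4 melanocyte markers with a probe set passed, with Dct between 3429 and 4065 in the 8 arrays. Of 13 leukocyte markers 8 passed, and Ptprc, Cd74, Cd207, Itgam and Lyz2 did not.

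**Figure D1:**
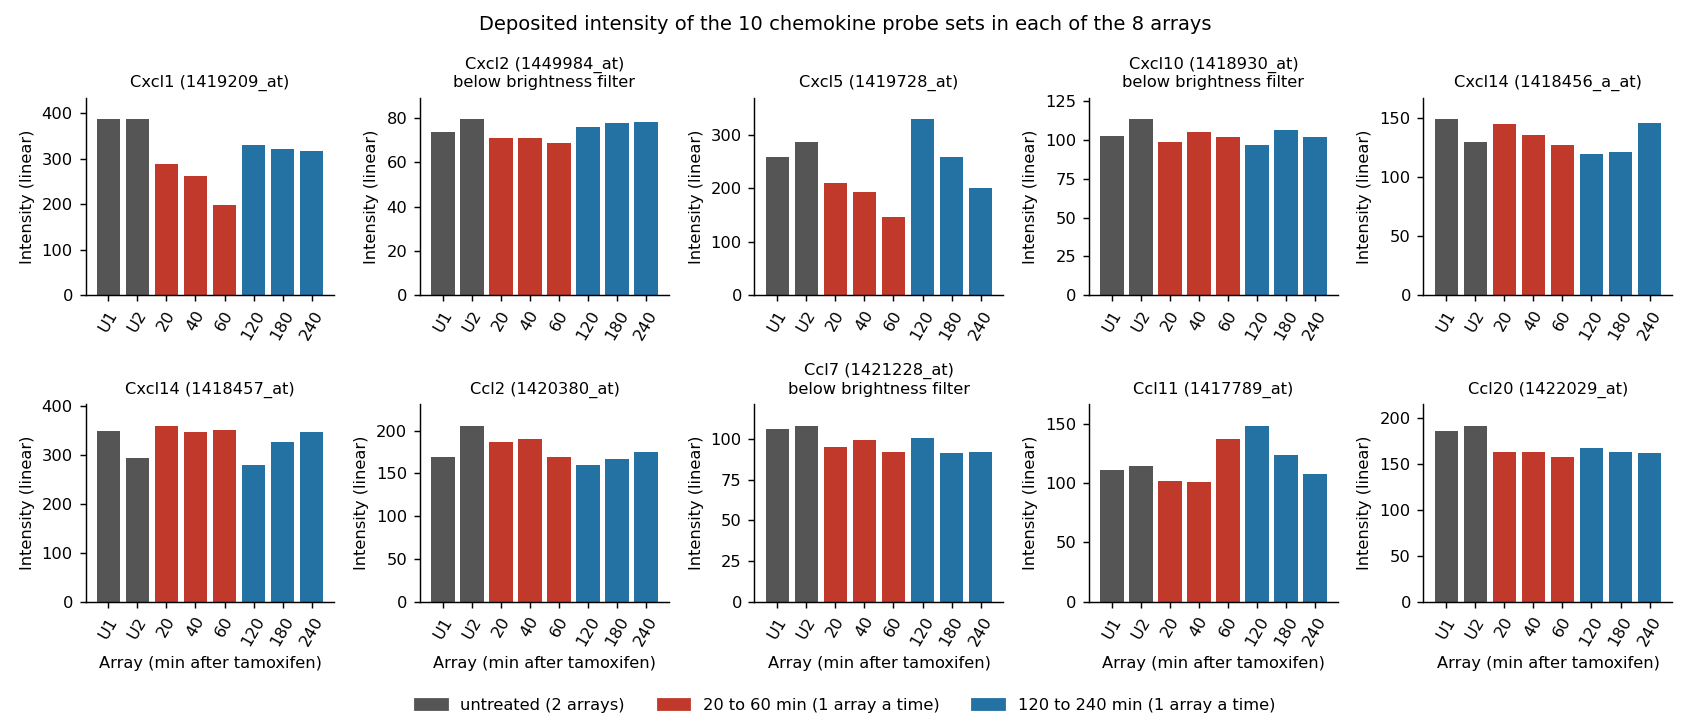
Deposited linear intensity of each of the 10 chemokine probe sets (1 panel each, axis from 0) in the 2 untreated arrays (grey), the 20, 40 and 60 min arrays (red) and the 120, 180 and 240 min arrays (blue). Each bar is 1 array. Cxcl1 and Cxcl5 are lowest at 60 min, at 198 and 146, and all 6 tamoxifen arrays of Ccl20 lie below both untreated arrays.

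Among the neutrophil attractants, Cxcl1 stepped down through the first hour and was partly back later. Its untreated arrays read 387 and 386, the 20, 40 and 60 min arrays 288, 261 and 198, and the 120, 180 and 240 min arrays 329, 321 and 316. All 6 tamoxifen arrays were below both untreated arrays, each later time of the first hour was lower than the time before it, and the 3 late arrays were above the 3 early ones. At 60 min the level was 0.53 times the untreated mean on the log2(intensity + 16) scale, and 12 of 15838 probe sets lay further below untreated at that time. Cxcl1 was selected for its low first hour, so this rank is a description and not a test. The late mean of 322 ± 6.65 (SD over 3 times) was against 387 ± 0.55 (SD, n = 2) in untreated arrays. In order from high to low, the untreated arrays came first, then 120, 180, 240, 20, 40 and 60 min. Only the steps from untreated to 120 min (0.22 on the log2 scale) and from 40 to 60 min (0.37) exceeded the residual SD of 0.17. That SD also holds the differences between times within a window, and Cxcl1 was selected on the untreated and early arrays. Nothing is therefore read from these steps.

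At 120 to 240 min Cxcl1 was 0.25 ± 0.12 (SE) lower on the log2 scale than in untreated arrays, a fold of 0.84. Cxcl1 and Ccl20 were selected for lying below these same untreated arrays in the first hour, so their late differences from untreated are a description too and are given with no test. Over the 17 alternatives tried, the difference of Cxcl1 stayed between -0.27 and -0.22. From the first hour to the late window Cxcl1 differed by 0.37 (log2, given with no test), and by 0.22 without the 60 min array.

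Cxcl5, a relative of Cxcl1 made by epithelium, followed it down and then took its own course. It read 258 and 286 untreated, 210, 194 and 146 at 20, 40 and 60 min, and 330, 259 and 201 at 120, 180 and 240 min. The early arrays were below both untreated arrays, the 120 min array was the highest of all 8, and the 240 min array lay between those of 20 and 40 min. On the log2 scale the first hour was 0.54 below untreated (-0.54, no test), and the 60 min level was 0.56 times the untreated mean. In its order from high to low, only the steps from untreated replicate 1 to 20 min (0.28) and from 40 to 60 min (0.37) exceeded the residual SD of 0.27. Differences between times within a window are part of that SD, so the steps are only described.

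The late window of Cxcl5 gave a mean of 263 ± 64.3 (SD over 3 times) beside 272 ± 19.6 (SD, n = 2) untreated. The log2 difference was -0.07 ± 0.19 (SE; limma, adjusted p = 1.00), with a 95% interval from -0.49 to 0.35, and its sign turned without the 240 min array (0.10). Against the first hour the late window was higher by 0.48 ± 0.17 (SE), a 95% interval of 0.10 to 0.85, and this did not pass over all probe sets (limma, unadjusted p = 0.0179, adjusted p = 0.217). It passed in limma without the 240 min array (0.64, adjusted p = 0.0307) and with array weights (0.42, adjusted p = 0.0132), and the difference was 0.31 without the 120 min array (adjusted p = 0.568). Many others passed there too: 1433 of 15838 probe sets without the 240 min array and 4847 with array weights. The weights did not reach their convergence tolerance and gave the 180 min array a weight of 7.93. The adjusted p of Cxcl5 ran from 0.0132 to 0.568 over 17 alternatives. Without the 60 min array the difference was 0.33. No probe set passed in this comparison (0 of 15838, 0%), while 2909 had an unadjusted p under 0.05 (18.4%). The comparison shares the 3 early arrays with the first-hour contrast in which Cxcl5 was already seen to be low.

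**Figure D2:**
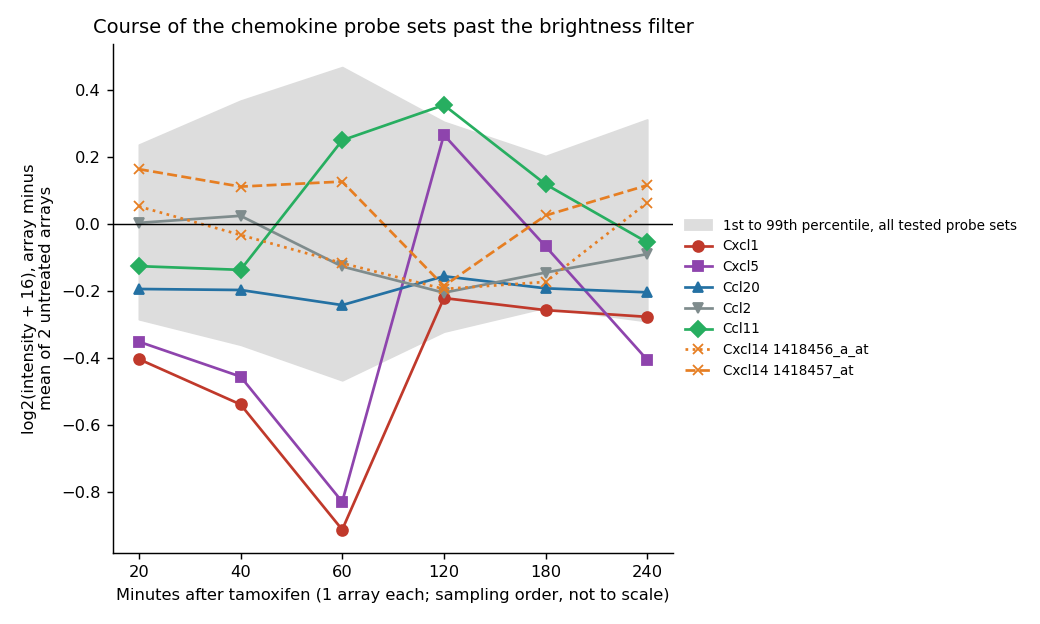
Log2 difference of each tamoxifen array from the mean of the 2 untreated arrays (y axis) by time in sampling order (x axis, 1 array each) for the 7 chemokine probe sets past the brightness limit; the grey band holds the 1st to 99th percentile of 15838 probe sets. Cxcl1 and Cxcl5 lie below the band at 20, 40 and 60 min (-0.91 and -0.83 at 60 min, where the band ends at -0.47), Cxcl1 just below it at 180 min and Cxcl5 again at 240 min, and Ccl11 lies above it at 120 min. Cxcl1 and Ccl20 were selected on the untreated and early arrays, so their places against the band are a description.

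Cxcl2, encoded beside Cxcl1, was dim throughout. It read 73.8 and 79.5 untreated, 70.9, 71.0 and 68.6 in the first hour and 76.0, 77.7 and 78.3 later. The early arrays lay below both untreated arrays and below all late arrays, but the whole first-hour shift was -0.10 on the log2 scale, and the probe set was not tested. It lay between -0.15 and -0.06 when each array was left out in turn.

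Levels of markers of other cells also shifted between the windows, but no leukocyte, fibroblast or melanocyte marker passed in limma as fitted. Of the 4 melanocyte markers 3 were higher late than early and 1 lower, with a median of 0.07 (log2). The summed intensity of the 8 leukocyte genes past the brightness limit was 1559 to 1699 in untreated arrays, 1429 to 1494 at 20 to 60 min and 1543 to 1759 at 120 to 240 min. It was highest at 120 min, like Cxcl5. All 8 were higher in the late window than in the first hour, by a median of 0.12 (log2; 0.01 over all probe sets). For Adgre1 the difference was only 0.002. Of the untested leukocyte markers under the brightness limit, Lyz2 (-0.11) and Cd74 (-0.01) were lower late than early. Ptprc (0.04), Cd207 (0.05) and Itgam (0.003) were higher. H2-Ab1, an MHC class II gene, read 216 and 254 untreated, 188, 182 and 173 early and 301, 243 and 199 late. Fibroblast genes summed to 4403 to 4528 untreated, 4301 to 4476 early and 4469 to 4790 late, with 9 of 10 higher in the late window than early. The exception was Vim, an intermediate filament gene, at 1393 and 1426 untreated, 1657, 1574 and 1741 early, and 1321, 1455 and 1576 late. Vim differed by -0.19 ± 0.07 (SE) from early to late (limma, unadjusted p = 0.0191, adjusted p = 0.219), and its other probe sets by -0.18 and -0.20. Sparc, a matrix protein, read 1522 and 1561, then 1352, 1325 and 1318, then 1863, 1519 and 1418. Dcn and Lum, of the same fibroblast list, did not pass the brightness limit. The G2 and M phase mean ran the other way at several arrays, at 8.77 at 120 min and 9.46 at 240 min. With that mean as a covariate Cxcl5 was 0.40 ± 0.12 (SE) higher late than early (limma, adjusted p = 0.0980). The part of these cells or of proliferation in the Cxcl5 values was not tested, and in bulk RNA fewer cells of a type and less RNA per cell cannot be told apart.

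**Figure D3:**
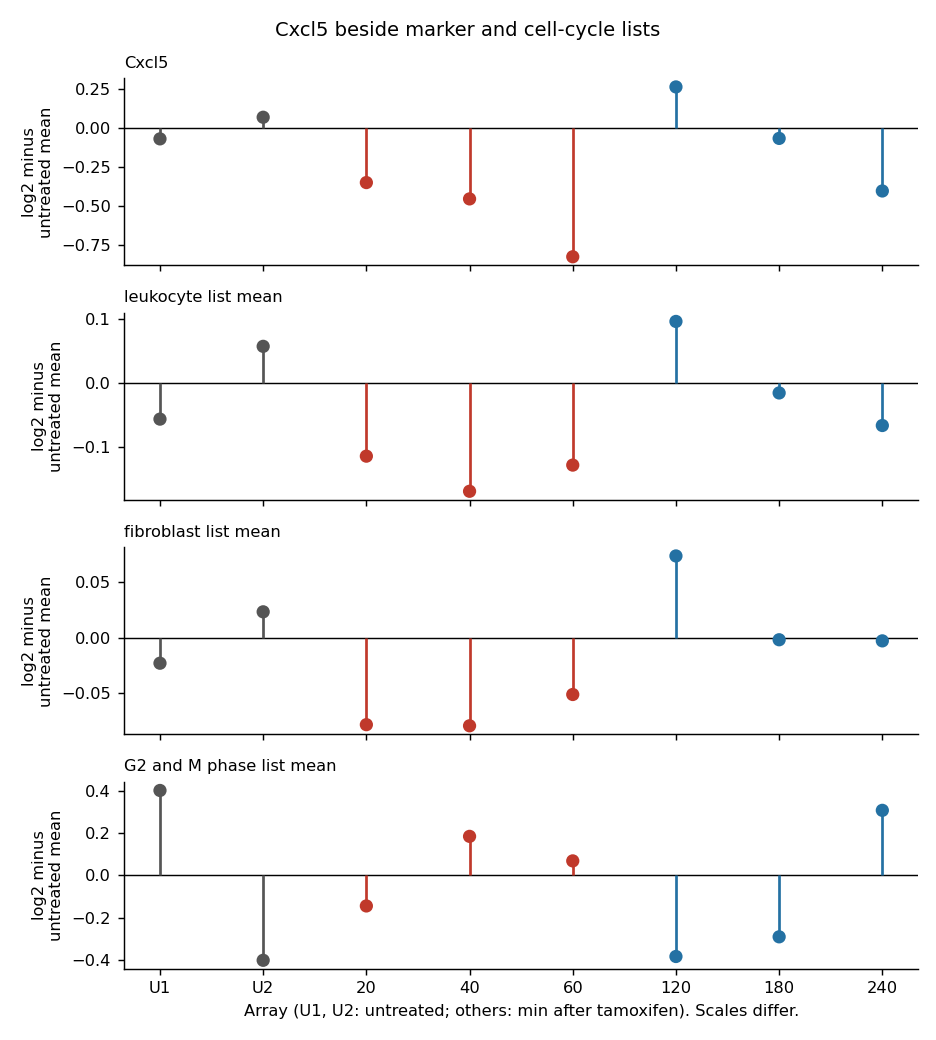
Log2 level minus the mean of the 2 untreated arrays (y axes, scales differ) in each array (x axis; U1 and U2 untreated, others minutes after tamoxifen) for Cxcl5 and for the means of the leukocyte, fibroblast and G2 and M phase lists. Cxcl5 and the leukocyte and fibroblast means are highest at 120 min, where the G2 and M phase mean, 8.77, is near its lowest.

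Ccl20, the ligand of Ccr6, showed a small and even shift. It read 186 and 192 untreated, 163, 163 and 157 at 20, 40 and 60 min, and 168, 163 and 162 at 120, 180 and 240 min. Every tamoxifen array was below both untreated arrays, and the early and late arrays overlapped. The early level was 0.86 times untreated and the late level 0.88 times. The widest step in its order was that from the lower untreated array to 120 min (0.14 on the log2 scale). The selection fixed this step in part, so it is not read against the residual SD of 0.03.

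In the late window Ccl20 was 0.18 ± 0.05 (SE) lower on the log2 scale than in untreated arrays, again with no test, and the difference lay between -0.21 and -0.15 in 16 alternatives. No probe set passed in that comparison in limma (0 of 15838, 0%), with 519 at an unadjusted p under 0.05 (3.28%). Between 3.74% and 7.74% of probe sets lay further below untreated than Ccl20 at 20, 40, 60, 120 and 240 min, and 2.56% at 180 min. Ccl20 was selected on the untreated and early arrays, so these shares are a description.

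Of the 7 chemokine probe sets past the brightness limit, 2 (Cxcl1 and Ccl20) had all 3 late arrays below both untreated arrays, where 8.62% of all probe sets did, and 0 had all of them above, where 9.16% did. These 2 genes are the ones selected for lying below the same untreated arrays, so nothing is read from their count. For the first hour the count below was 3 (Cxcl1, Cxcl5 and Ccl20), where 19.5% of all probe sets did. That window chose the members, so the count is only given. None of the 7 had all early arrays above, where 15.8% of all probe sets did. From early to late, Cxcl1 alone of the 7 had all late arrays above all early ones, where 12.3% of all probe sets did, and 0 had them all below, where 8.53% did. Cxcl1 was selected for its low early arrays, so this count too is a description. Both windows lay below the untreated arrays for Cxcl1 and Ccl20, and for 3.66% of all probe sets, a count that the selection fixed in part. By size, at least 1.25-fold below both untreated arrays were Cxcl1 at 20 min (0.208% of all probe sets), Cxcl1 and Cxcl5 at 40 min (0.543%) and at 60 min (1.66%), and Cxcl5 at 240 min (0.234%). The entries of Cxcl1 at 20, 40 and 60 min come from the values that selected it, so they are a description. At least 1.25-fold above both was Ccl11 at 120 min (0.271%), which passed the brightness limit only with its high 60 and 120 min arrays included, so its count is a description. None of the 7 was that far above at 20 min (0.0568%), 40 min (0.373%), 60 min (1.70%), 180 min (0.0126%) or 240 min (0.107%), or below at 120 min (0.189%) or 180 min (0.0568%). The untreated arrays themselves were that far apart for 3.52% of all probe sets and for none of the 7. By sign alone, 6 of the 7 were below untreated in the late window (46.8% of all), 6 in the first hour (54.7%), and 3 were lower late than early (45.7%). The median difference of the 7 in the late window was -0.10 (log2), beside 0.00 (0.0046) over all 15838. The sign counts and this median include the selected Cxcl1 and Ccl20, and Cxcl14 by 2 probe sets, so nothing is read from them. The other late differences were -0.07 (Cxcl5), -0.10 and -0.01 (Cxcl14), -0.15 (Ccl2) and 0.14 (Ccl11).

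**Figure D4:**
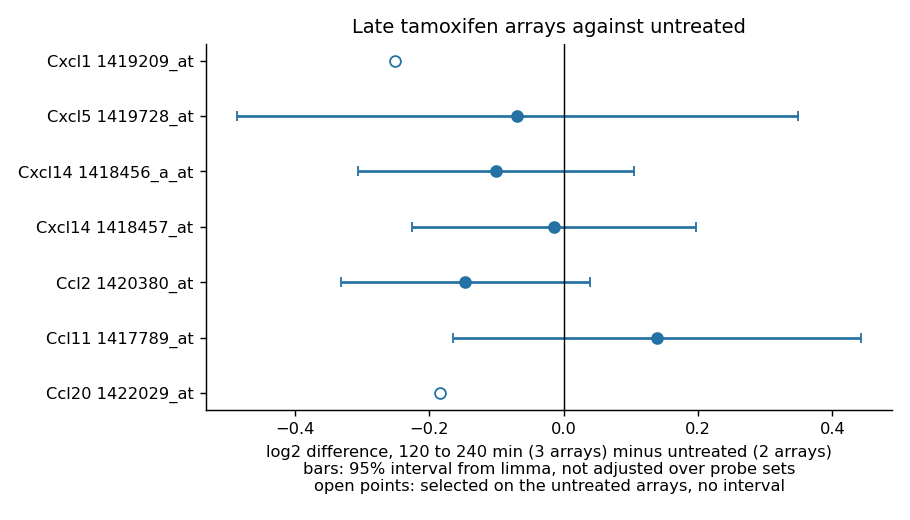
Log2 difference of the 3 arrays at 120 to 240 min minus the 2 untreated arrays (x axis) for each chemokine probe set past the brightness limit, with 95% intervals from limma that are not adjusted over probe sets. Cxcl1 and Ccl20 (open points, -0.25 and -0.18) were selected on these untreated arrays and have no interval, and the intervals of the other 5 probe sets span 0. Ccl11 passed the brightness limit only with its high 60 and 120 min arrays included, so its interval is a description and not a test.

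Ccl2, Ccl7 and Ccl11 are neighbours on the genome. Their late differences from untreated were -0.15, -0.16 and 0.14 (log2), and whether they share a course was not tested. Ccl2 read 169 and 206 untreated, 187, 190 and 170 early, and 160, 167 and 174 late. The untreated arrays themselves were 0.26 apart (log2), more than any tamoxifen time lay from their mean. The 20, 40, 60 and 240 min arrays lay between them, and the 120 and 180 min arrays below both. The late difference was -0.15 ± 0.08 (SE; limma, adjusted p = 1.00; 95% interval -0.33 to 0.04). It was -0.28 without untreated replicate 1 and -0.02 without untreated replicate 2. The first-hour difference, -0.03, was 0.10 without untreated replicate 2 and -0.16 without replicate 1. Against the first hour the late window differed by -0.11 ± 0.07 (SE; limma, adjusted p = 0.425).

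Ccl7 was dimmer and lay under the brightness limit. It read 106 and 108 untreated, 95.04, 99.5 and 91.8 early, and 101, 91.6 and 91.8 late, so that every tamoxifen array was below both untreated arrays. The late level was 0.90 times untreated, a difference of -0.16 (log2) with no test.

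Ccl11 was highest in the middle of the course. It read 111 and 115 untreated, 102 and 101 at 20 and 40 min, 137 and 149 at 60 and 120 min, and 124 and 108 at 180 and 240 min. The 60, 120 and 180 min arrays were above both untreated arrays and the other 3 were below. At 120 min the level was 1.28 times the untreated mean, and 99.4% of all probe sets lay lower in this respect. The windows average over this course: the late difference was 0.14 ± 0.14 (SE, limma 95% interval -0.17 to 0.44) and 0.03 without the 120 min array. Without the 60 or the 120 min array the probe set fell under the brightness limit, so these values are a description and not a test. None of its neighbouring steps exceeded its residual SD of 0.19. As that SD also holds the differences between times within a window, this does not show that the steps were small.

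Cxcl14, the chemokine of resting epithelium, was read by a brighter and a dimmer probe set, which gave different orders. The brighter one read 349 and 294 untreated, 360, 347 and 351 early, and 280, 326 and 348 late. The dimmer one read 149 and 130 untreated, 145, 136 and 127 early, and 120, 122 and 146 late. Both were higher in untreated replicate 1 than in replicate 2, by 0.24 and 0.18 (-0.24 and -0.18 as replicate 2 minus replicate 1), and both were lowest at 120 min. Their late differences were -0.01 ± 0.09 and -0.10 ± 0.09 (SE; limma, adjusted p = 1.00 for each), with 95% intervals of -0.23 to 0.20 and -0.31 to 0.10. From the first hour to the late window they differed by -0.15 ± 0.08 (limma, adjusted p = 0.364) and -0.07 ± 0.08 (limma, adjusted p = 0.679). The replicate in which Cxcl14 was higher is the one with the higher G2 and M phase mean, and a link between them was not tested.

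Cxcl10, induced by interferon, was under the brightness limit and flat. It read 103 and 113 untreated, 98.3, 105 and 102 early, and 96.6, 106 and 102 late, and all windows overlapped. Its differences from untreated, -0.07 early and -0.08 late, were smaller than the gap of 0.12 between the untreated arrays.

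The genes most like each member over the 8 arrays were named by Pearson's r among 9293 others, as a description with no p, each the highest of many values over 8 arrays that share their windows. Nearest to Cxcl1 were Cep57l1 (0.985), Fam162a (0.974) and the gap junction gene Gja1 (0.974). Gja1 read 2982 and 3145 untreated, 2547, 2541 and 2156 early, and 2957, 2775 and 2732 late, so that it too was lowest at 60 min. Nearest to Cxcl5 were the interferon-induced membrane protein gene Ifitm3 (0.987), Tmeff1 (0.984) and Ncbp2, of the nuclear cap-binding complex (0.983). Ifitm3 read 2713 and 3277, then 2166, 1757 and 1454, then 3831, 2754 and 2170, with its highest value at 120 min and its lowest at 60 min, as for Cxcl5. Nearest to Ccl20 were Acsm2 (0.976), Hif3a (0.968) and Lrba (0.960), to Ccl2 Keg1 (0.968), Tmem170 (0.953) and Tmem266 (0.934), to Ccl11 Usp2 (0.957), Agap2 (0.946) and Ddx24 (0.942), and to Cxcl14 Psmg1 (0.992), Dnajc21 (0.981) and Mrpl54 (0.979).

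Of 28 other chemokine ligands, 26 had a probe set and 12 passed the brightness limit. None of the 12 passed in either tested comparison, and in the late window 4 were higher than untreated and 8 lower (median -0.03, log2). Ppbp, which lies next to Cxcl5 and encodes another neutrophil attractant, ran against it in the first hour. Ppbp read 258 and 256 untreated, 273, 299 and 359 at 20, 40 and 60 min, and 308, 290 and 288 later, and all 6 tamoxifen arrays were above both untreated arrays. Its late difference was 0.19 ± 0.09 (SE; limma, unadjusted p = 0.0769, adjusted p = 1.00). Pf4, a platelet chemokine, was at -0.15 ± 0.05 (unadjusted p = 0.0152, adjusted p = 1.00). Cxcl16 was at -0.13 ± 0.06 by 1 probe set and 0.01 by the other. Ccl22 was at 0.10 ± 0.06.

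Of 23 chemokine receptors, 21 had a probe set and 9 passed the brightness limit. Cxcr4, Ccr2 and Ccr3 were among those that did not. In the late window 7 were higher than untreated and 2 lower (median 0.02), and 6 were higher than in the first hour. Ackr3, a scavenger of Cxcl12, read 214 and 201 untreated, 181, 183 and 188 early and 238, 199 and 215 late, and was 0.22 ± 0.06 (SE) higher late than early without passing (limma, unadjusted p = 0.00767, adjusted p = 0.197).

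Of 20 cytokines that induce chemokines or are induced with them, 11 passed the brightness limit. In the late window 10 of the 11 were lower than untreated (median -0.10), where 46.8% of all probe sets were, and none passed. Tnf read 140 and 151 untreated, 123, 119 and 116 early, and 139, 134 and 133 late. Its late difference was -0.09 ± 0.05 (SE), and it was 0.16 ± 0.05 higher late than early (limma, unadjusted p = 0.0075, adjusted p = 0.197). Lif, of the IL-6 family, was 0.26 ± 0.08 higher late than early (adjusted p = 0.198) by its brighter probe set and lay at -0.10 by the dimmer. Il18 ran the other way, at 371 and 285 untreated, 381, 380 and 453 early and 238, 287 and 383 late, a difference of -0.42 ± 0.16 from early to late (adjusted p = 0.229). Il1a read 498 and 647 untreated, 561, 407 and 374 early, and 602, 555 and 442 late.

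Of 28 cytokine receptors and adaptors 24 were tested, of which 14 were higher and 10 lower in the late window than untreated (median 0.02) and 17 were higher than in the first hour (median 0.02). Myd88, the adaptor of IL-1 and Toll-like receptors, read 748 and 736, then 671, 603 and 650, then 806, 764 and 711. It was 0.24 ± 0.06 higher late than early (limma, unadjusted p = 0.00281, adjusted p = 0.197), and Tlr2 was 0.27 ± 0.08 higher (adjusted p = 0.197). Of 19 NF-kB subunits and regulators 13 were tested, 7 higher and 6 lower in the late window (median 0.00, 0.001). Nfkbia, the NF-kB inhibitor that NF-kB itself induces, read 2491 and 2802 untreated, 2227, 2022 and 2262 early, and 2525, 2448 and 2366 late. Its late difference was -0.11 ± 0.07 (limma, adjusted p = 1.00), and its other 3 probe sets gave -0.19, -0.06 and -0.08. Rela, which encodes the main activating subunit, was at 0.06 ± 0.09.

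Of 9 regulators of chemokine mRNA decay 7 were tested, 5 higher and 2 lower in the late window than untreated (median 0.02). Between the windows 4 were higher late than early and 3 lower. Zfp36l1, which promotes decay through AU-rich elements, read 1945 and 2300, then 1828, 1516 and 1546, then 2489, 2164 and 1841, and was 0.40 ± 0.12 higher late than early (limma, unadjusted p = 0.00695, adjusted p = 0.197; its other probe set 0.31). Zc3h12a, an endonuclease of cytokine transcripts, was 0.18 ± 0.05 higher (adjusted p = 0.197) and Zfp36 0.21 ± 0.07 higher (adjusted p = 0.220). Hnrnpd, an AU-rich element binding protein, was at -0.36 ± 0.11 (adjusted p = 0.205). Of 17 interferon response genes 9 were tested, 7 higher and 2 lower in the late window (median 0.02), with Tap1 at 0.09 ± 0.08 and Irf9 at -0.09 ± 0.06, neither of which passed in limma.

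**Figure D5:**
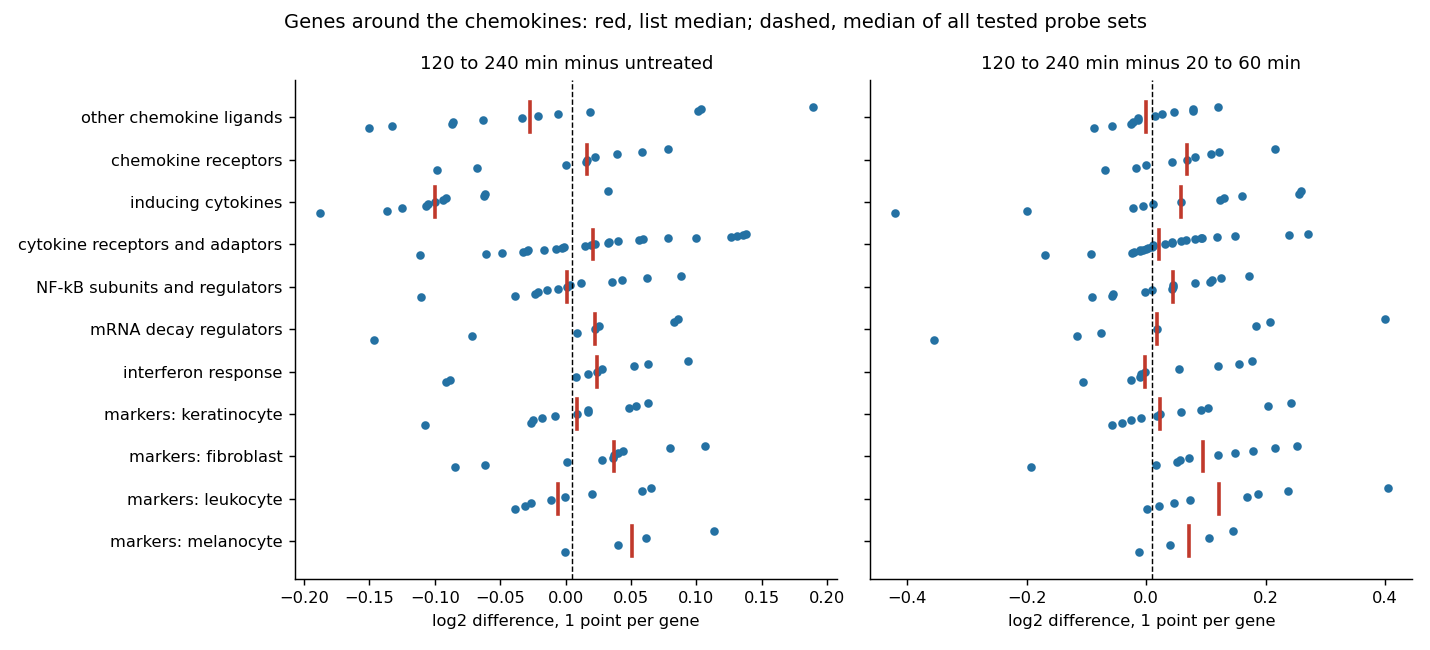
Log2 differences (x axis) of the measured genes of each list (1 point per gene, brightest probe set; red bar, list median) for 120 to 240 min minus untreated (left) and minus 20 to 60 min (right); the dashed line is the median of all tested probe sets. Inducing cytokines lie to the left of 0 in 10 of 11 cases on the left side, and all 8 leukocyte markers past the brightness limit lie to the right of 0 on the right side.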

How the data were processed

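Total RNA was extracted with Trizol and labelled as biotinylated cRNA, per the labels' protocols. The authors deposited 1 linear intensity for each of 22690 probe sets and array. Their summary and scaling methods: not given in the sources used here. After 64 control probe sets were left out, 20380 had 1 gene symbol, 691 several and 1555 none in the platform annotation. Values were used as log2(intensity + 16). limma 3.58.1 in R 4.3.3 (lmFit, eBayes, 5 residual degrees of freedom) was fitted to all 15838 probe sets past the brightness limit, with 3 windows (untreated, 20 to 60 min, 120 to 240 min) and Benjamini-Hochberg adjustment at 0.05. Each listed gene was represented by its probe set with the highest mean. The fit was tested on simulated data. The members, lists, 1.25-fold size and tests were chosen with earlier results of these data known. All member probe sets are named. Of each list, up to 4 genes with the smallest p in each tested comparison were eligible, together with the 3 genes most like each member. The number of arrays limits the precision.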

Additional observations from a re-analysis of the deposited data

How the results depend on the processing

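No probe set passed in any of the 3 comparisons as fitted, and the counts changed under few alternatives. With array weights, which did not reach their convergence tolerance and gave the 180 min array a weight of 7.93, 1 probe set passed late against untreated (Npn2) and 4847 passed late against early. With the G2 and M phase covariate 1 passed late against untreated (Npn2 again), 584 late against early and 642 early against untreated. When each array was left out in turn the counts ran from 0 to 1 late against untreated, from 0 to 1433 late against early and from 0 to 1 early against untreated. The 1433 arose without the 240 min array, and the single passing probe set was Susd4, without untreated replicate 1, in both comparisons. Npn2 and Susd4 were named after their values were seen. Other pseudocounts, filters, centring, quantile normalization and 1 probe set per gene gave 0 in all 3 comparisons.

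For single members, late against untreated, Cxcl5 lay between -0.24 and 0.10 when each array was left out, with 5.00e-04 without untreated replicate 2, and the brighter Cxcl14 probe set between -0.13 and 0.10. The latter was at 0.0135 with array weights and 0.0184 with the covariate. Of the 159 member values under an alternative in that comparison, 6 turned sign with no call on either side and 4 untested values moved by more than the residual SD. Late against early 2 values passed that had not (Cxcl5, with array weights and without the 240 min array) and 1 untested value moved, and early against untreated 8 untested values moved. The others kept their direction and call or, where untested, stayed within the residual SD. The cause of these shifts was not tested. No paired analysis was possible because each tamoxifen time has 1 array and the labels give no number that joins arrays.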
